A study of Mus musculus with 6 samples.

Results

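The genes described here encode the brake and the engine of the G1 phase of the cell cycle: the CDK inhibitors of the CIP/KIP class (Cdkn1a, Cdkn1b, Cdkn1c) and of the INK4 class (Cdkn2c, Cdkn2d), the D cyclins (Ccnd1, Ccnd2, Ccnd3) and their kinase partners (Cdk4, Cdk6). They were chosen by name, 10 of the 19938 genes that the array annotation names, and were found as 11 probe sets. For 9 of them a probe set annotated to a single gene exists; the sole probe set listed for Cdkn1a is also listed for 4930567H12Rik, so its value could not be given to either gene. The arrays held 3 samples of mouse leukemia cells of the line MLL-AF10 given 0.5 µM of an IKK inhibitor and 3 samples of the same line given vehicle, and both groups were grown in serum-containing RPMI with WEHI conditioned medium, which is a source of interleukin-3. Which compound was used, for how long, and whether the 3 samples were separate cultures is not given in these sources, so the p-values describe sample-to-sample spread that could be technical. All results come from this one line.

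In G1, a D cyclin binds CDK4 or CDK6, and the complex phosphorylates the retinoblastoma protein, which otherwise holds E2F factors silent at the promoters of S phase genes. INK4 proteins bind CDK4 and CDK6 and keep D cyclins off, while CIP/KIP proteins bind whole cyclin-CDK complexes and block above all CDK2. In blood cell progenitors, growth factors raise D cyclins, and CDK6 is the G1 kinase on which many leukemias with an MLL fusion depend. IKK kinases activate NF-kB, a family of transcription factors for which Ccnd1 is a known target in several cell types.

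With the IKK inhibitor, Ccnd1 rose by 30.8%, Ccnd2 fell by 14.0%, and Ccnd3 did not pass the test. No CDK inhibitor and neither kinase passed. The Ccnd2 call was lost on leaving out any array but inhibitor array 2. Differences between the D cyclins had p = 0.1 for each pair by exact permutation, a test that could not reach 0.05. The count of members called, 1 higher and 1 lower of 9 tested, stood beside 7.1% of all 19847 genes called higher and 6.75% called lower, 13.9% in all, by limma at a Benjamini-Hochberg adjusted p under 0.05 over all genes tested. At an unadjusted p under 0.05, 2 members were higher and 1 was lower, beside 13.3% of all genes higher and 13.9% lower. The median log2 fold change was 0.07 over the 9 members and 0.01 over all genes tested. The 9 members stayed above the floor of 16 set on the intensities on all 6 arrays, so none was lost as too dim.

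Ccnd1 encodes cyclin D1. Its intensities, in the linear units of the deposited table, were 820.0, 884 and 788 with the inhibitor, against 624, 629 and 649.7 with vehicle. All inhibitor arrays lay above all vehicle arrays, and the gap between the groups was wider than either group's spread. The means were 831 ± 49.1 with the inhibitor and 634 ± 13.6 with vehicle (SD, n = 3 each), and limma gave a log2 fold change of 0.39 ± 0.06 (SE, 95% interval 0.25 to 0.53) with an adjusted p of 0.00794. The call held when any array was left out, with limma adjusted p from 0.0148 to 0.0430.

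Ccnd2 encodes cyclin D2, a D cyclin prominent in blood cells. Its intensities were 1112, 1208 and 1140.0 with the inhibitor, against 1331, 1341 and 1349 with vehicle. The groups did not overlap here either, with the inhibitor arrays below, and the vehicle arrays lay close together. The means were 1153 ± 49.1 with the inhibitor and 1341 ± 9.34 with vehicle (SD, n = 3 each). Limma put the log2 fold change at -0.22 ± 0.05 (SE, 95% interval -0.34 to -0.10) with an adjusted p of 0.0355. This call was kept without inhibitor array 2 (adjusted p = 0.0273) and lost without inhibitor arrays 1 and 3 (0.126 and 0.0849) and vehicle arrays 1, 2 and 3 (0.0908, 0.116 and 0.120), as well as after median centring of the arrays (0.0994) and with all probe sets of the table tested (0.0667), an alternative chosen after seeing the data.

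Ccnd3 encodes cyclin D3. Its intensities were 2153, 2204 and 2104 with the inhibitor, against 2074, 1983 and 2100.3 with vehicle. The groups just failed to touch, since the lowest inhibitor array and the highest vehicle array were nearly level. The log2 fold change was 0.07 (95% interval -0.05 to 0.19, limma adjusted p = 0.441). The interval reflects only the spread between these samples. Of all genes tested, 33% had groups that did not overlap, against 4 of the 9 members: the D cyclins and Cdkn2d.

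The changes of the D cyclins were also compared within each array, as the log2 difference between a pair of them. The shift of Ccnd1 against Ccnd2 was 0.61, that of Ccnd1 against Ccnd3 0.32 and that of Ccnd3 against Ccnd2 0.29, each as inhibitor minus vehicle. In each of the 3 pairs all inhibitor arrays lay above all vehicle arrays, and an exact permutation test over arrays (two-sided) gave p = 0.1, the smallest that 3 against 3 arrays allow; the value was 0.1 after adjustment over the 3 pairs. The design therefore could not reach 0.05 in this test. For the pairs with Ccnd2 the outcome was also fixed beforehand. On all inhibitor arrays Ccnd2 alone lay lower, and Ccnd1 and Ccnd3 alone lay higher, than on any vehicle array. These pairs therefore add no support to the results of the single genes. A probe set's brightness depends on its probes, so the levels of different cyclins were not set against each other.

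**Figure D1:**
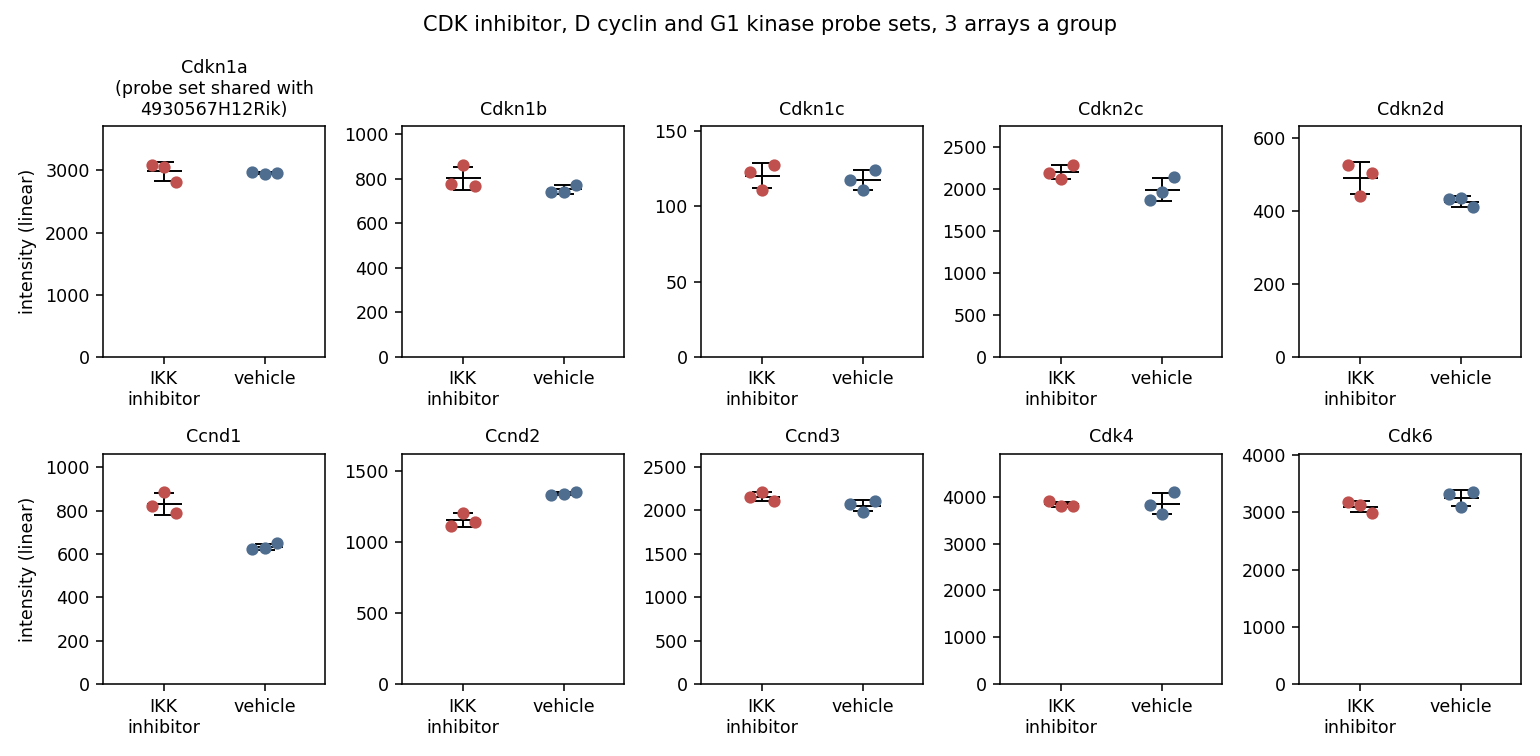
Linear intensity (y axis, from 0) of each listed gene's probe set on each array, with the IKK inhibitor in red and vehicle in blue; bars are the mean and SD of 3 arrays. For Ccnd1 the inhibitor points lie above those of vehicle, for Ccnd2 below, and for Cdk4, Cdk6, Cdkn1b and Cdkn1c they overlap.

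Among the CIP/KIP genes, Cdkn1b, which encodes p27, had intensities of 777, 863 and 768 with the inhibitor, against 742, 742 and 774 with vehicle. Inhibitor array 2 stood highest, and inhibitor array 3 lay within the vehicle range. The log2 fold change was 0.09 (95% interval -0.06 to 0.24, limma adjusted p = 0.412). A second and dimmer probe set of Cdkn1b had intensities of 78.8, 102.9 and 97.6 with the inhibitor, against 54.1, 80.2 and 79.2 with vehicle. On it the log2 fold change was larger, 0.40, but the groups overlapped and the adjusted p was 0.197 by limma with probe sets tested singly.

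Cdkn1c, which encodes p57, was dim, at 122.6, 111.0 and 127.6 with the inhibitor, against 117.2, 110.8 and 124.2 with vehicle. The ranges nearly coincided, and the log2 fold change was 0.04 (95% interval -0.14 to 0.21, limma adjusted p = 0.820). The table holds no detection calls, so whether this probe set stood above background is not known. The probe set listed for both 4930567H12Rik and Cdkn1a, the gene of the p53-inducible inhibitor p21, had intensities of 3090.2, 3051 and 2808 with the inhibitor, against 2978, 2948 and 2955 with vehicle. The vehicle arrays lay inside the range of the inhibitor arrays. In the limma fit over all 34450 probe sets above the floor its log2 fold change was 0.01 (95% interval -0.13 to 0.15, adjusted p = 0.949).

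Taking the brightest probe set of each gene, Cdkn2d and Cdkn2c had larger fold changes than Cdkn1b and Cdkn1c, without passing the test. Cdkn2b, an INK4 gene given below, had a smaller fold change than either CIP/KIP gene, but it may not stand above background. A trait of the INK4 class is therefore not shown. With the mean of probe sets, Cdkn1b had 0.25, above Cdkn2d (0.20) and Cdkn2c (0.14). The difference between the classes was not tested. Cdkn2d, which encodes p19INK4d, had intensities of 526, 442 and 503 with the inhibitor, against 432, 435 and 409.6 with vehicle. The groups did not overlap, but inhibitor array 2 lay close to vehicle. The log2 fold change was 0.20 ± 0.08 (SE, 95% interval 0.02 to 0.38) with a limma adjusted p of 0.138. Without inhibitor array 2 the log2 fold change was 0.27 and the adjusted p 0.0316, and without any other array it did not pass.

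Cdkn2c, which encodes p18INK4c, had intensities of 2186, 2119 and 2286 with the inhibitor, against 1869, 1968 and 2139 with vehicle. Vehicle array 3 fell inside the inhibitor range. The log2 fold change was 0.14 (95% interval -0.01 to 0.30, limma adjusted p = 0.226). For the other INK4 genes, which lie next to each other in the mouse genome, Cdkn2a, whose locus also encodes the p53 activator ARF, averaged 140.4 with the inhibitor and 120.1 with vehicle (log2 fold change 0.22, limma adjusted p = 0.0555), and Cdkn2b averaged 136.3 with the inhibitor and 135.9 with vehicle (0.01). Neither passed. At an unadjusted p under 0.05 there was 1, Cdkn2a (13.3% of all genes were higher). It passed with floors of 32 and 64 (limma adjusted p = 0.0484 and 0.0330). Both Cdkn2a and Cdkn2b were about as dim as Cdkn1c, so whether they stood above background is not known either.

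One promoter window of each INK4 member is shown because the drug is aimed at NF-kB signalling. The capitals mark matches to GGG and CC with any 5 bases between them, on either strand, the outer letters of many NF-kB sites; overlapping matches run together. Windows run from 250 bases before to 50 bases after a RefSeq start on GRCm38.p6.
Cdkn2c, chr4:109666707-109667006, minus strand: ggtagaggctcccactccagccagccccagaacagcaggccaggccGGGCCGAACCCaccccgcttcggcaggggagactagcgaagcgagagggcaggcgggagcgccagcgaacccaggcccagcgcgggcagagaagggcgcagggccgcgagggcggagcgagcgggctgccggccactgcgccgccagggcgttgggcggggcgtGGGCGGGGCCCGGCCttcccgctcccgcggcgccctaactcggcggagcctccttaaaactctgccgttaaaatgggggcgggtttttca
Cdkn2d, chr9:21291160-21291459, minus strand: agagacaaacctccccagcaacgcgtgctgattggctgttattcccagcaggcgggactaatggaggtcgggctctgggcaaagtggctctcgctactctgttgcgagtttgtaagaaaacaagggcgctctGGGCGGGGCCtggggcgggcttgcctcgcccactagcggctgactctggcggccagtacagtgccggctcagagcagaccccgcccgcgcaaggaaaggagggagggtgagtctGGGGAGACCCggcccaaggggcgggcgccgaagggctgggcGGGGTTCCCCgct
The Cdkn2c window shown held 5 matches and the Cdkn2d window 3, while a second Cdkn2c window, chr4:109665323-109665622 on the minus strand, held 0. Such a match is common: 50.8% of all 32851 promoter windows of this length held at least 1, and so did 8 of the 10 windows found for 7 members (Cdkn1a, Cdkn1b, Cdkn2c, Cdkn2d, Ccnd3, Cdk4 and Cdk6). A match is a description of these letters only.

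Neither kinase passed the test. Cdk4, the D cyclin partner found in most tissues, had intensities of 3905, 3791 and 3808 with the inhibitor, against 3819, 3638 and 4089.9 with vehicle, and every inhibitor value lay inside the vehicle range. Its log2 fold change was -0.0038 (95% interval -0.14 to 0.13, limma adjusted p = 0.980). Cdk6 had intensities of 3176, 3135 and 2988 with the inhibitor, against 3324, 3099 and 3349 with vehicle. The ranges overlapped, and the log2 fold change was -0.07 (95% interval -0.20 to 0.06, limma adjusted p = 0.485).

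**Figure D2:**
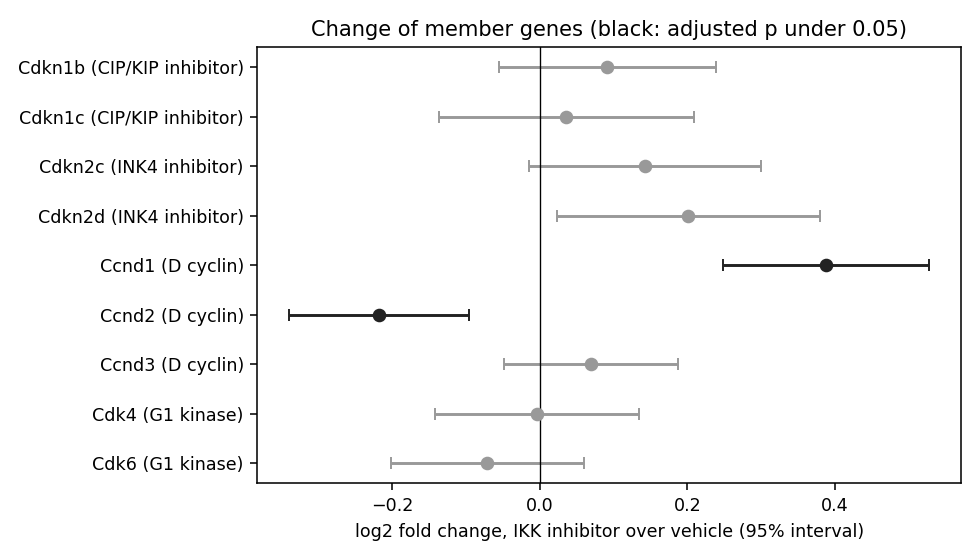
Log2 fold change of the 9 members with a probe set of their own (x axis, IKK inhibitor over vehicle) with the 95% interval of the limma fit; black points passed an adjusted p of 0.05. Ccnd1 at 0.39 and Ccnd2 at -0.22 are the black points, and the intervals of the other members except Cdkn2d include 0.

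**Figure D3:**
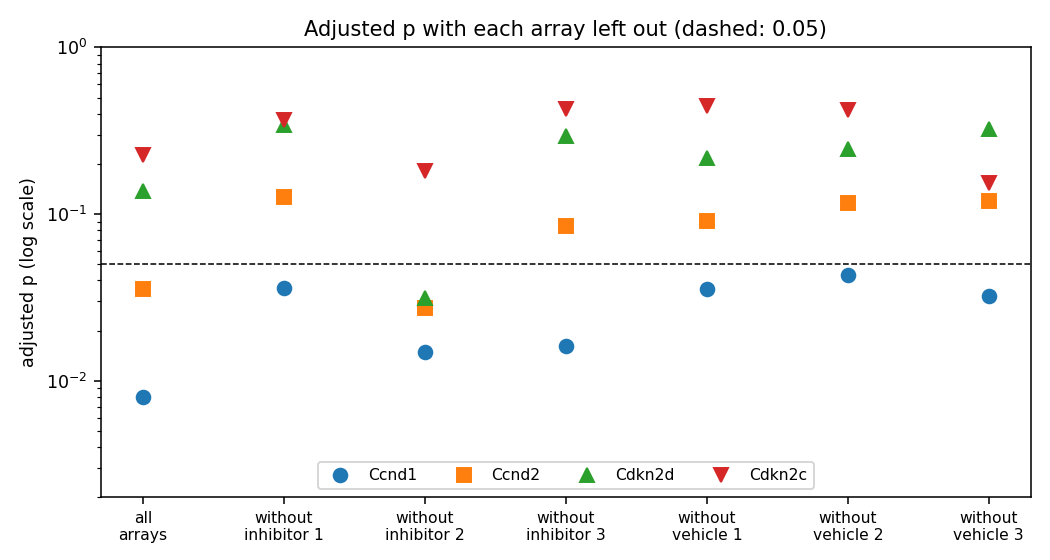
Limma adjusted p (y axis, log scale) of 4 members with all arrays and with each array left out in turn; the dashed line is 0.05. Ccnd1 stays below the line throughout, Ccnd2 is below it with all arrays and without inhibitor array 2, and Cdkn2d falls below it without inhibitor array 2.

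Over the 6 arrays, Ccnd1 was most alike in pattern to Cd93 (Pearson r = 0.999), which encodes a stem cell and myeloid surface receptor, then to Klra2, Map4, Irak2 and Idh1, the last with r = 0.998, among 16104 other genes with a mean intensity of at least 64. With so few arrays many genes are alike, and 1508 had r above 0.9. The arrays also share the treatment, so r here mostly ranks genes that are higher with the inhibitor.

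Downstream of the D cyclins, the genes of S phase were lower as a list while those of the retinoblastoma and E2F proteins were mixed. Of 24 S phase genes tested, listed as E2F targets, 13 fell and none rose, against 6.75% of all genes called lower. The list's median was -0.21 on the log2 scale, that of all genes 0.01. At an unadjusted p under 0.05, 20 were lower and none was higher (of all genes, 13.9% and 13.3%), and in 21 of the 24 the groups did not overlap, as in 33% of all genes. Fen1, the flap endonuclease of lagging strand synthesis, averaged 506 with the inhibitor and 643 with vehicle, a log2 fold change of -0.34 (limma adjusted p = 0.00702). Gins1 and Gins2, subunits of the replicative helicase, fell by 0.36 and 0.28 on the log2 scale. Orc1, the largest subunit of the origin recognition complex, averaged 239 with the inhibitor and 339.9 with vehicle and fell by 0.52. These 4 have the smallest p of the list. The Fen1 call held whichever array was left out. The Gins1 and Orc1 calls were lost without vehicle array 2 (adjusted p = 0.0514 and 0.0584) or 3 (0.0507 and 0.0644), and the Gins2 call without vehicle arrays 1, 2 and 3 (0.0581, 0.0675 and 0.0631). The count of 13 was 11 without inhibitor array 2, 8 without inhibitor array 3, 4 without inhibitor array 1 or vehicle array 1, and 1 without vehicle array 2 or 3, while the median stayed between -0.22 and -0.19. With median centring the count was 8, with quantile normalization or array weights 16, and with an intensity trend and robust prior 21.

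E2F factors bind TTTGGCGC and TTTCGCGC, and 9 of the 21 S phase genes with a promoter window held at least 1 of these on either strand. The share was 0.929% of all 27025 genes with a window, and none of the 7 members with one held any. The S phase genes were listed as E2F targets, so this excess follows from the choice of the list and is not a result. The windows of Orc1 and of Rfc3, a clamp loader subunit named after its value was seen (log2 fold change -0.42, called with limma adjusted p = 0.0351 and lost without each array but inhibitor array 2, up to 0.119), are shown as the larger falls of the list, with the E2F letters in capitals.
Orc1, chr4:108579204-108579503, plus strand: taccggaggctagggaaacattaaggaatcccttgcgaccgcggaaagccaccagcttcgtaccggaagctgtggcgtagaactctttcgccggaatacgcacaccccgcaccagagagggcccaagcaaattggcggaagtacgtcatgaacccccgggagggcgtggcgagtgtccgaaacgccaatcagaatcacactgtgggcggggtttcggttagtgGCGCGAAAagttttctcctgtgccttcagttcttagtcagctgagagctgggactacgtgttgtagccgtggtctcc
Rfc3, chr5:151651159-151651458, minus strand: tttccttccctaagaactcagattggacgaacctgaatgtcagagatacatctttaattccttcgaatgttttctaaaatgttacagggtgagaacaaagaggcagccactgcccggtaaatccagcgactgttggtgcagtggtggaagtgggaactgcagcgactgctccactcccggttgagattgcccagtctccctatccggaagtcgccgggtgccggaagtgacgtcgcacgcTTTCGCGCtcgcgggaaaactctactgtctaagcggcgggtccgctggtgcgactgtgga
Of the 9 S phase genes with such letters 5 fell, of the 12 without them also 5, and of the 3 without a window 3. The medians were -0.24 with the letters and -0.18 without them. No difference between these classes was tested.

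Of 13 pocket protein, E2F and DP genes, 1 rose and 2 fell, beside 7.1% of all genes called higher and 6.75% lower. The list's median was 0.01 on the log2 scale and -0.03 with median centring. Rb1, which encodes the retinoblastoma protein, had intensities of 1126, 1088 and 1107 with the inhibitor, against 967, 961 and 941 with vehicle. The groups did not overlap, and its log2 fold change was 0.21 (limma adjusted p = 0.0266). The repressor E2f6 fell by 0.35 (adjusted p = 0.0196) and E2f4, the main partner of the pocket proteins in resting cells, by 0.23 (0.0216). E2f5, at -0.28, did not pass, except without inhibitor array 2 (limma adjusted p = 0.0336) and with array weights (0.0445). The activator E2f1, named after its value was seen, averaged 948 with the inhibitor and 943 with vehicle. The Rb1 and E2f4 calls were kept without inhibitor array 2 and lost without each other array (adjusted p up to 0.107 and 0.0875), and when arrays were centred on their medians (0.205 and 0.0707); the E2f6 call was lost without inhibitor array 1 (0.0686) and without vehicle arrays 1, 2 and 3 (up to 0.0772).

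Of 9 genes of cyclins E and A, CDK2, its phosphatase and its activating kinase, 1 fell and none rose. The shares of all genes called were 6.75% lower and 7.1% higher. At an unadjusted p under 0.05, 3 were lower and none was higher (of all genes, 13.9% and 13.3%), and the median was -0.08. The member called was Cdc25a, the phosphatase that removes inhibitory phosphates from CDK2, at -0.25 on the log2 scale (limma adjusted p = 0.0453). Cdk7 (-0.20), Ccne1 (-0.16) and Ccnh (-0.10) did not pass. Cdk7 did in 7 of 18 alternative settings, among them without inhibitor array 2 (limma adjusted p = 0.0387), and Ccne1 did in 2 of 18.

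Of 19 genes for the turnover of D cyclins and CIP/KIP proteins, 4 fell and none rose, with a median of -0.04. The shares of all genes called were 6.75% lower and 7.1% higher. At an unadjusted p under 0.05, 5 were lower and 1 was higher (of all genes, 13.9% and 13.3%). Skp2, the F-box protein that marks p27 for degradation, averaged 693 with the inhibitor and 829 with vehicle, a log2 fold change of -0.26 (limma adjusted p = 0.0295). Its cofactor Cks1b averaged 1834 with the inhibitor and 2232 with vehicle and fell by 0.28 (adjusted p = 0.0183). Dtl, the adaptor of the ligase that degrades p21 in S phase, fell by 0.39 and Cdc20, an activator of the anaphase-promoting complex, by 0.24. The calls of Skp2, Cks1b, Cdc20 and Cdc25a were kept without inhibitor array 2 and lost without each other array (adjusted p up to 0.106, 0.0703, 0.149 and 0.129). The Dtl call was lost without inhibitor array 1 (0.0636) and without vehicle arrays 1, 2 and 3 (up to 0.122), and those of Skp2, Cdc20 and Cdc25a with median centring (0.0594, 0.0899 and 0.0689).

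Of 23 genes of G2 and M phase, 3 fell and none rose, with a median of -0.13. The shares of all genes called were 6.75% lower and 7.1% higher. At an unadjusted p under 0.05, 9 were lower and 1 was higher (of all genes, 13.9% and 13.3%). Birc5 (survivin) fell by 0.24, the spindle checkpoint kinase gene Ttk by 0.24 and the checkpoint gene Bub1b by 0.20 on the log2 scale. Cdk1, the mitotic kinase gene, had -0.23 and did not pass (limma adjusted p = 0.0562), though it did in 7 of 18 alternative settings. No member was called without inhibitor array 1 or 3 or any vehicle array, and 2 were without inhibitor array 2. The count was also 0 with median centring. Called lower were 4 with quantile normalization and 10 with an intensity trend and robust prior, which also called 1 higher. The median stayed between -0.14 and -0.10 whichever array was left out. The proliferation marker Mki67, named after its value was seen, averaged 2390 with the inhibitor and 2127 with vehicle (0.17, not passed). It passed in 4 of 18 alternative settings.

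Of 20 genes of the p53 pathway, best known for inducing p21, 6 rose and none fell, against 7.1% of all genes called higher. At an unadjusted p under 0.05, 7 were higher and 3 lower (of all genes, 13.3% and 13.9%), and the median was 0.09. The death receptor gene Fas averaged 342 with the inhibitor and 202 with vehicle and rose by 0.76 on the log2 scale. Trp53inp1 rose by 0.66 and the antiproliferative gene Btg2 by 0.50, and these 3 held whichever array was left out. Gadd45a rose by 0.35 (limma adjusted p = 0.0184) but not without inhibitor arrays 1 and 3 or vehicle arrays 1 and 3 (up to 0.0754). The count was 5 without inhibitor array 2 or vehicle array 2, 4 without inhibitor array 1 or vehicle array 1, and 3 without inhibitor array 3 or vehicle array 3. Some fell in other settings. With genes above the median intensity 5 of 17 were higher and 3 lower, and with array weights 6 were higher and 2 lower. Mdm2, the p53 target that feeds back on p53 and was named after its value was seen, averaged 1767 with the inhibitor and 1692 with vehicle and did not pass.

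Of 25 transcription factors and chromatin regulators known to act on CDK inhibitor or D cyclin genes, 6 rose and 1 fell. Of all genes, 7.1% were called higher and 6.75% lower. At an unadjusted p under 0.05, 7 were higher and 3 lower (of all genes, 13.3% and 13.9%). The list's median was 0.04. The AP-1 genes Fos and Jun, whose products can activate Ccnd1, averaged 244 and 644 with the inhibitor, against 109.9 and 429.9 with vehicle, rises of 1.15 and 0.58 on the log2 scale. Klf6, an activator of Cdkn1a in other cell types, rose by 1.10 and Tcf7l2, a Wnt pathway factor, by 0.62. All 4 calls held whichever array was left out. Myc, which represses CDK inhibitor genes and activates Ccnd2, was the one member called lower, and it was named after its value was seen. Its intensities were 1900.2, 1811 and 1895 with the inhibitor, against 2424, 2334 and 2385 with vehicle, a log2 fold change of -0.35 (limma adjusted p = 0.0056).

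Of 29 other cyclin and CDK genes, 2 rose and 1 fell, beside 7.1% of all genes called higher and 6.75% lower. The list's median was -0.03. Cdkl2 rose by 0.44 and Ccng2, a cyclin linked to cell cycle exit, by 0.51, while Ccnl2 fell by 0.26. Cdk13 (0.17) did not pass, though it did in 5 of 18 alternative settings. Cdkl2 was dim, averaging 108.2 with the inhibitor and 79.8 with vehicle, and whether it stood above background is not known. The Ccng2 call was lost without inhibitor array 1 and vehicle arrays 1, 2 and 3 (limma adjusted p up to 0.0977) and with quantile normalization (0.0583), and the Ccnl2 call without every array but inhibitor array 3 (up to 0.144) and with median centring (0.0546).

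**Figure D4:**
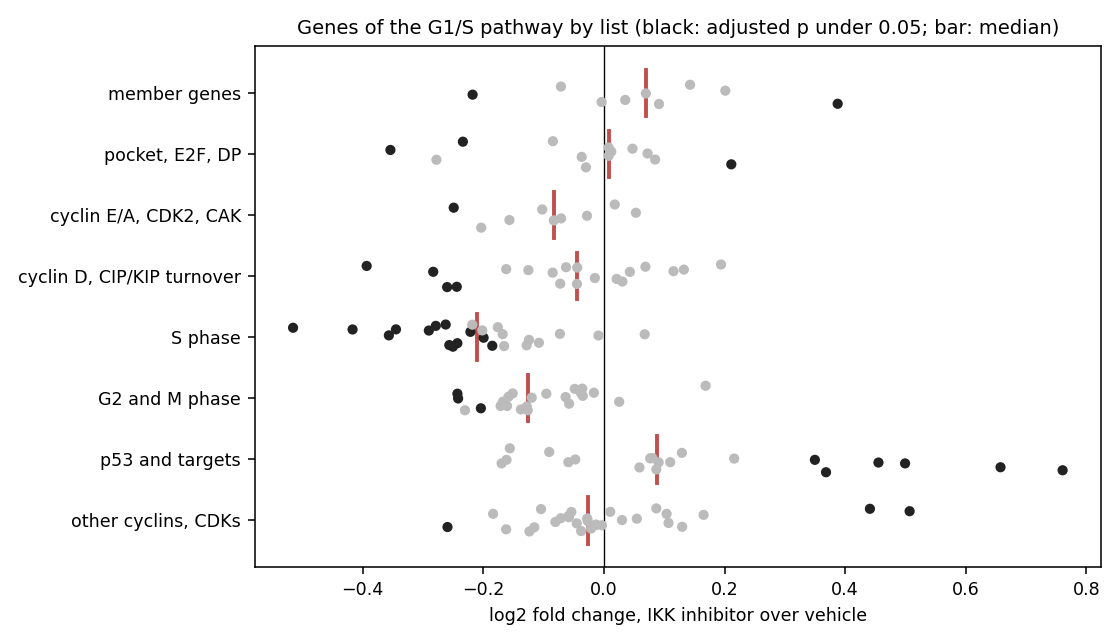
Log2 fold change (x axis, IKK inhibitor over vehicle) of each gene tested in the members and in 7 lists of the pathway; black points passed an adjusted p of 0.05 and red bars are medians. The S phase genes gather left of 0 around a median of -0.21, while the members spread on both sides around 0.07.

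Other genes moved with these in the same cells. The marker counts below stand beside 7.1% of all genes called higher and 6.75% lower. At an unadjusted p under 0.05 these shares were 13.3% and 13.9%. Monocyte and macrophage markers were higher for 10 of 18 and lower for none, with summed intensities of 19842 to 21058 with the inhibitor and 11277 to 11745 with vehicle; among them Gpnmb, Csf1r, Adgre1 and Marco rose by 1.78, 1.23, 1.43 and 2.69 on the log2 scale. Of 15 neutrophil markers 8 were higher and 3 lower, with sums of 22326 to 23086 with the inhibitor and 19947 to 20513 with vehicle; Mpo fell by 2.62, and Mmp9, Ngp and S100a9 rose by 1.45, 0.74 and 0.72. Of 10 stem and progenitor markers 2 were higher (Procr, Cd93) and 2 lower (Kit, Cd34; no call without inhibitor array 1 or vehicle array 2 or 3), with sums of 8588 to 8784 with the inhibitor and 8553 to 8831 with vehicle. The part of these marker shifts in the changes of Ccnd1, Ccnd2 and the S phase genes was not tested. In RNA from whole cultures a different share of cells in a state cannot be told apart from a different level per cell. None of 7 T cell and 7 erythroid markers passed by limma (at an unadjusted p under 0.05, none and 1, Tfrc), with sums of 722 to 871 and 1609 to 1702 with the inhibitor and 754 to 891 and 1727 to 1761 with vehicle. Of 9 B cell markers 2 were higher (Cd22, Blnk) and 1 lower (Igll1), with sums of 883 to 932 with the inhibitor and 872 to 939 with vehicle. Cd22, Blnk and Igll1 were dim, Blnk averaging 70.3 with the inhibitor and 56.3 with vehicle. Whether they stood above background is not known. The Blnk call was lost with a floor of 64 (limma adjusted p = 0.0565). Of 10 stromal markers Acta2 alone was higher, with sums of 2105 to 2166 with the inhibitor and 1605 to 1732 with vehicle. Meis1 and Myb, which leukemias with an MLL fusion express, averaged 1116 and 3103 with the inhibitor, against 1076 and 3305 with vehicle. Flt3 was dim at 73.0 with the inhibitor and 75.8 with vehicle. Meis1, Myb and Flt3 were named after their values were seen, and these levels do not test the label of the cells.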

How the data were processed

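The deposited table holds linear intensity values of 35512 probe sets on 6 arrays, which the authors produced in Affymetrix Expression Console according to the labels. The version, the algorithm and any normalization between arrays are not given in these sources; per the submitters' processing notes only the tool is known. Array medians lay between 112 and 124, and the number of arrays limits the precision. Values below 16 were set to 16 and log2 was taken, which understates changes of dim genes. Probe sets were named through the platform annotation, with symbols updated by Entrez number; 21789 had 1 symbol, 1621 several and 12102 none. For each gene the brightest probe set was used. Groups were taken from the treatment label. The test of inhibitor against vehicle was limma 3.58.1 under R 4.3.3 (lmFit, eBayes, 2-sided, no covariates), Benjamini-Hochberg adjusted over 19847 genes; 91 genes never above the floor were left out. SE and intervals are those of this fit.

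Members and lists were chosen with earlier results of these data known. Named genes were the members, the 4 with the smallest p in each list, and the 5 most like the member with the smallest p; others are said to be named after their values were seen. Promoters are RefSeq windows on GRCm38.p6. Tested on simulated data drawn from these 19847 genes, the fit called 7 of 67 genes given a log2 change of 0.25, 38 of 67 given 0.5 and 59 of 66 given 1, plus 4 unchanged genes. Only those genes were changed there, far fewer than the 2749 called in the data. The adjustment was therefore stricter, and these recoveries do not give those of the real fit, which may be higher. Alternatives covered scaling, floors, filters on dim genes, probe set summaries, variance priors, array weights, the replicate number as a block and leaving out each array.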

Additional observations from a re-analysis of the deposited data

How the results depend on the processing

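Ccnd1 kept its direction and its call in all 20 alternatives, with adjusted p up to 0.0430. Leaving out each array in turn, log2 fold changes ran from 0.15 to 0.27 for Cdkn2d, from -0.25 to -0.19 for Ccnd2, from -0.00752 to 0.0926 for Cdkn1c, from -0.0437 to 0.0408 for Cdk4 and from -0.0534 to 0.0841 for Cdkn2b, the last 3 near 0 with signs that changed. Cdkn2d passed with genes above the median intensity (0.20), with an intensity trend and robust prior (0.20) and with array weights (0.27), and Cdkn2c passed with the trend (0.14). Ccnd2 did not pass with median centring (-0.25) or with a replicate block (-0.22), nor with all probe sets tested (-0.22). Cdk4 was 0.0150 with array weights, and Cdkn2b was -0.0297 with quantile normalization and -0.0264 with median centring. E2f1 lay at -0.00357, -0.0259 and -0.00993 with quantile normalization, median centring and array weights, and from -0.00887 to 0.0373 with an array left out. Members called higher numbered 2 with genes above the median, 3 with the trend, 2 with array weights and 1 to 2 with an array left out; members called lower numbered 0 with median centring, 0 with the replicate block and 0 to 1 with an array left out. Over all genes the count of 2749 was 4199 with the trend, 4334 with array weights, 1679 with the replicate block, 984 at an adjusted p under 0.01 and 1183 to 2810 with an array left out. In the replicate block, which pairs arrays of the same number, deviations from group means correlated at 0.241, 0.133 and -0.0935 for the 3 numbers. Between arrays of different numbers they correlated at -0.287 to 0.177. Only number 1 lay above that range, and the numbers were not taken as pairs. S phase genes called lower numbered 3 with the replicate block. The cause of these differences was not tested. Of the named genes that are no members, 123 combinations of gene and setting ended a call, 33 made one and 11 turned a sign. Members that did not pass are not shown to be unchanged. Changes of about the size of Ccnd2 were rarely recovered on simulated arrays. Far fewer genes were changed there than were called in the data, so the adjustment was stricter and the recovery does not carry over.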
